A study of Mus musculus with 6 samples.

Results

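The insulin-like growth factor (IGF) system was examined in RNA-seq of mouse tibialis anterior (TA) muscles through 10 genes of the deposited table of 41709 genes. They were taken by symbol: the ligands Igf1 and Igf2, the imprinted RNA H19 beside Igf2, the receptors Igf1r and Igf2r, and the binding proteins Igfbp3, Igfbp4, Igfbp5, Igfbp6 and Igfbp7. In the LrpprcWT group, 3 TA muscles were electroporated with a pCMV6 plasmid for Flag-tagged wild-type mouse Lrpprc. In the LrpprcP27A group, 3 received the same plasmid carrying alanine in place of proline at position 27, a residue whose hydroxylation was studied in muscle wasting. The mice were male C57BL/6J, both TA muscles were electroporated after hyaluronidase injection, and the muscles were compared 14 days later. The study used mice of 4 and 27 months, and which of these ages the RNA-seq mice had is not stated in the sources used here. Both groups carried the overexpressed gene and the injury of electroporation, and no untreated or mock-electroporated library was analysed here, so that each value compares one plasmid with the other and not with resting muscle. The CMV promoter is not specific to a cell type, the endogenous Lrpprc gene was still present, and only part of a muscle takes up plasmid. Muscles with the same library number are treated as replicates 1, 2 and 3.

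Igf1 and Igf2 are secreted growth factors. Both signal through the receptor tyrosine kinase encoded by Igf1r, which acts through the insulin receptor substrates, PI3K and Akt to promote protein synthesis and muscle growth, while Igf2r binds Igf2 and carries it to lysosomes without such a signal. The binding proteins hold IGFs in the tissue or the blood, prolong their life and limit or deliver them to the receptor, and proteases release the ligand again. Igf2 and H19 lie side by side, are expressed from opposite parental copies, and are known to be high in developing and regenerating muscle.

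On the deposited scale, most of the 10 transcripts were lower with LrpprcP27A than with LrpprcWT. Of the 10 genes, 8 fell and 0 rose at an adjusted p below 0.05 (limma on log2 of TPM + 1, Benjamini-Hochberg adjustment over the 11611 genes that averaged 1 TPM or more), where 23.3% of all tested genes fell and 1.34% rose. TPM gives how much of a library's transcripts came from a gene once length is accounted for, and it adds up to the same total in every library. Both ligands, H19 and all 5 binding proteins were among those that fell, and neither receptor passed the test. Igf2 moved most, to 20.2% of its LrpprcWT mean, and Igf1r least, with a LrpprcP27A mean at 81.3% of the LrpprcWT mean. In whole muscle, fewer cells of a type and less RNA per cell cannot be told apart. All 10 genes passed the filter on low values, and the lowest value of any of them was 2.00 TPM, of Igf1r.

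**Figure D1:**
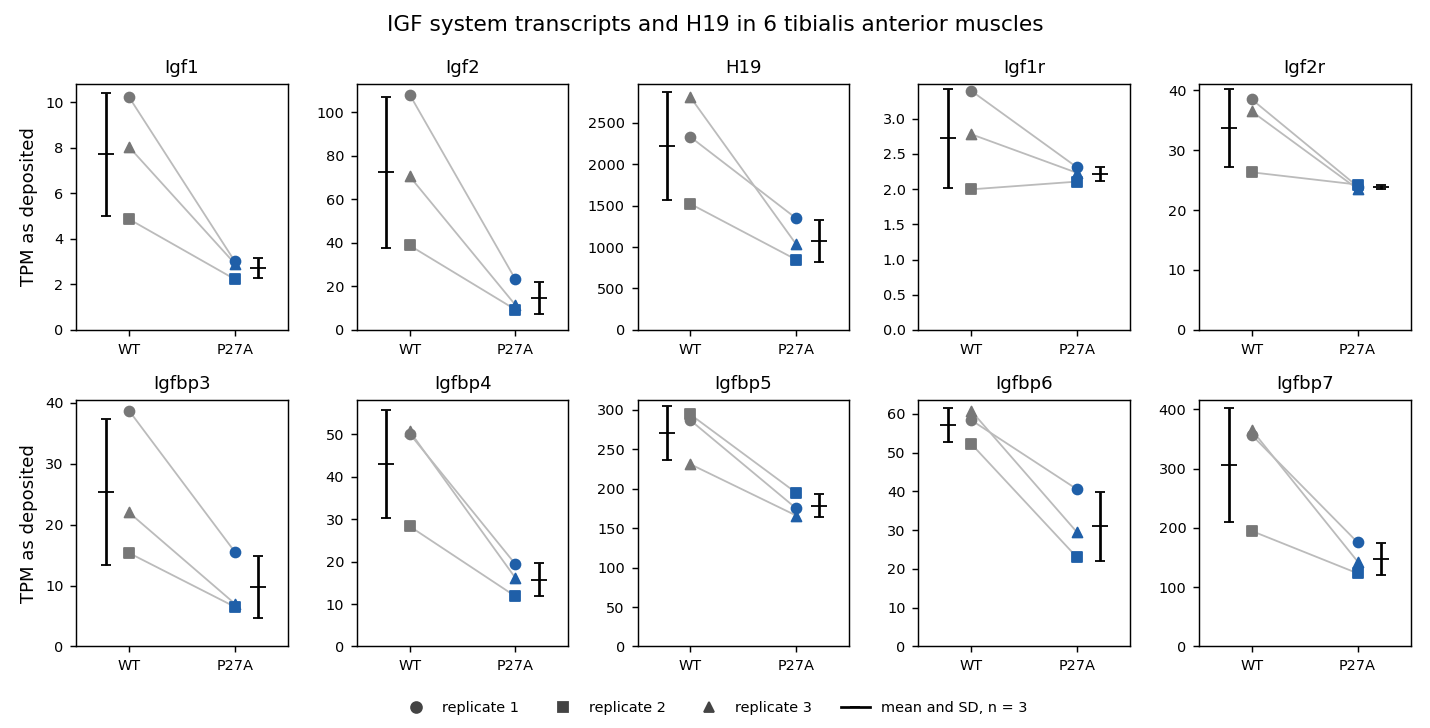
Level of each gene in TPM (y axis, from 0, a separate scale for each gene) in the 3 LrpprcWT (grey) and 3 LrpprcP27A (blue) muscles, with lines joining same-numbered replicates and bars for the mean and SD. The groups are apart for 8 of the 10 genes and overlap for Igf1r, and for Igfbp3, whose lowest LrpprcWT muscle (15.4 TPM) sits just under its highest LrpprcP27A muscle (15.6 TPM).

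The Igf2 and H19 genes each hold a microRNA precursor, miR-483 within Igf2 and miR-675 within H19, and their mature forms are shown because they are what else these transcripts can give rise to. The capitals mark the seed, bases 2 to 8, which does most of the pairing with a target RNA. The sequences are those of RefSeq on GRCm38.p6, where they lie on the minus strand of chromosome 7.
mmu-miR-675-5p: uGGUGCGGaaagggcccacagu
mmu-miR-675-3p: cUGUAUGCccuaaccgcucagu
mmu-miR-483-5p: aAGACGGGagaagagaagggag
mmu-miR-483-3p: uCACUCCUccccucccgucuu
Each seed is shared by 0 of the other mature miRNAs in the same table of 1679. Mir675 was listed at 0 TPM in all 6 libraries, which were not made for small RNAs, and the fall of H19 says nothing of the level of these miRNAs.

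Promoter sequence was at hand for 9 of the 10 genes, H19 not among them, as 12 windows of 250 bases before to 50 after a RefSeq start. Stretches of 120 bases, from 100 before to 20 after the start, are shown for the 3 genes that fell under every scaling tried below and for Igf2r, which did not. Capitals mark matches on either strand to a TATA box (TATAAA), a GC box (GGGCGG) or an E-box (CACGTG), and matches within one motif do not overlap.
Igf1, chr10:87861011-87861130, plus strand: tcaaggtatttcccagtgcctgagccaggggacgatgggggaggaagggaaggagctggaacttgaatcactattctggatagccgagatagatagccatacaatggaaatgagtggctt
Igf2, the last of 4 starts along the gene, chr7:142657477-142657596, minus strand: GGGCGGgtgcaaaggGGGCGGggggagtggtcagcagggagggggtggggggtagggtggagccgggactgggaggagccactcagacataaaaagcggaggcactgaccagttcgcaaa
Igfbp4, chr11:99041144-99041263, plus strand: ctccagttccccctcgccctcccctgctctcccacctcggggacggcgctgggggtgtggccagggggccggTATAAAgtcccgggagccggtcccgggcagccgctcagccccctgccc
Igf2r, chr17:12769687-12769806, minus strand: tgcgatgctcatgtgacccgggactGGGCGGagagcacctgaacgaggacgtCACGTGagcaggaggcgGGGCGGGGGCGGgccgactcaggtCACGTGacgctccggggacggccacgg
These coordinates are on GRCm38.p6. The Igf1 stretch holds none of the 3 motifs and is the least rich in G and C of the 4, at 52.3% over its window, near the median of 52.7% over all 32851 windows of the table. The Igf2r window is at 70.7% and carries the E-box in 2 copies and the GC box in 3. A TATA box was found for Igfbp4 and Igfbp6 and in 13.6% of all windows, a GC box for Igf1r, Igf2, Igf2r and Igfbp7 and in 35.7% of all windows, and an E-box for Igf2r and in 7.15% of all windows. The letters TGTTTAC, bound by FoxO factors, were in 0 of the 12 windows and in 3.65% of all windows. No motif was common to the genes that fell, and a match is a description of the letters and not of binding.

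Igf2, a growth factor that myoblasts make as they differentiate, measured 108.1, 38.8 and 70.5 TPM in the LrpprcWT muscles of replicates 1, 2 and 3 and 23.2, 9.33 and 11.4 TPM in the LrpprcP27A muscles. The highest LrpprcP27A value lay below the lowest LrpprcWT value, and LrpprcP27A was at 21.5, 24.05 and 16.2% of LrpprcWT within the pairs. Its mean was 72.5 ± 34.7 TPM (SD, n = 3) against 14.7 ± 7.47 TPM (SD, n = 3). The log2 fold change was -2.21 ± 0.39 (SE), with an adjusted p of 0.0160 (limma), and 0.293% of the tested genes had a more negative one. Igf2 lies on chr7:142204503-142220694 (GENCODE, GRCm39, minus strand), and its exons overlap those of Igf2os, Gm33148 and Gm49394. The reads were not stranded and could be shared, but none of these 3 exceeded 0.476 TPM in any library.

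H19, a long non-coding RNA expressed from the maternal copy, was the most abundant of the 10 transcripts and lies on chr7:142129262-142133957, 70545 bases from Igf2 (GENCODE, GRCm39). Its level was 2327, 1520 and 2807 TPM with LrpprcWT and 1346, 847 and 1033 TPM with LrpprcP27A. The groups did not overlap, and the gap was narrow, since LrpprcWT replicate 2 was closest to LrpprcP27A replicate 1. H19 fell by 1.02 ± 0.24 (SE) on the log2 scale (limma adjusted p = 0.0249), from 2218 ± 651 to 1075 ± 252 TPM (SD, n = 3 each). Both transcripts fell, and the log2 fold change of Igf2 was the larger. Igf2 per H19 was 4.64, 2.55 and 2.51% with LrpprcWT and 1.72, 1.10 and 1.11% with LrpprcP27A. This ratio within a library does not depend on how libraries are scaled. It was lower with LrpprcP27A in 3 of 3 pairs by 1.28 ± 0.13 (SD of the pairs) on the log2 scale, and the exact permutation test gave p = 0.1, two-sided, the smallest that 3 against 3 allow.

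Igf1 encodes the growth factor that muscle makes in response to growth hormone, load and injury, on chr10:87693642-87772904 (plus strand). It measured 10.2, 4.87 and 8.04 TPM with LrpprcWT and 3.02, 2.23 and 2.92 TPM with LrpprcP27A. LrpprcWT replicate 2 was again the lowest of its group, yet above all 3 LrpprcP27A muscles. The mean went from 7.71 ± 2.70 to 2.72 ± 0.429 TPM (SD, n = 3 each), a log2 fold change of -1.18 ± 0.23 (SE) with a limma adjusted p of 0.0180. Igf1 per Igf2 was higher with LrpprcP27A, at 13, 23.9 and 25.5% against 9.46, 12.6 and 11.4%, with no overlap (exact permutation p = 0.1, two-sided).

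Igf1r encodes the signalling receptor of both ligands on chr7:67601518-67883416 (plus strand), and was the least abundant of the 10. It measured 3.40, 2.00 and 2.78 TPM with LrpprcWT and 2.31, 2.11 and 2.23 TPM with LrpprcP27A. The LrpprcP27A values lay inside the range of the LrpprcWT values, and in replicate 2 LrpprcP27A was at 105.5% of LrpprcWT. The log2 fold change was -0.19 with a 95% interval from -0.57 to 0.19 (limma adjusted p = 0.357), and it turned to 0.08 with median-of-ratios scaling and to 0.22 with quantile normalization. Its exons overlap those of Pgpep1l, at 3.59 to 5.91 TPM in these libraries, so that some of its reads could belong to that gene.

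Igf2r, which clears Igf2 through lysosomes and lies on chr17:12901293-12988614 (minus strand), was more abundant than Igf1r at 38.5, 26.3 and 36.4 TPM with LrpprcWT and 23.9, 24.2 and 23.5 TPM with LrpprcP27A. The LrpprcP27A muscles were nearly alike and all below the LrpprcWT muscles, of which replicate 2 came close to them. The log2 fold change of -0.46 ± 0.15 (SE) missed the threshold without pairing (limma adjusted p = 0.0528) and passed it with the replicate number as a block (adjusted p = 0.00837). After median-of-ratios scaling it was -0.10 on the log2 scale (adjusted p = 0.446, and 0.406 with the block). Airn, the antisense RNA that starts within Igf2r and silences it on the paternal copy, measured 2.44 ± 0.785 TPM with LrpprcWT and 1.91 ± 0.336 TPM with LrpprcP27A (SD, n = 3 each, limma adjusted p = 0.341).

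Set against their receptors, the ligands were lower in every LrpprcP27A muscle. Igf1 per Igf1r was 301.1, 243.8 and 289% with LrpprcWT and 130.5, 105.8 and 130.7% with LrpprcP27A. Igf2 per Igf2r was 281.1, 147.5 and 193.6% against 96.9, 38.5 and 48.6%. Neither ratio overlapped between the groups, and both reached the smallest p that 3 against 3 allow (exact permutation test, two-sided, p = 0.1). The first differed by -1.19 ± 0.03 and the second by -1.82 ± 0.25 on the log2 scale (SD of 3 pairs). Igf1r per Insr, the insulin receptor with which it forms hybrids, was 24.96, 20.2 and 25.4% against 22.9, 16.4 and 16.6% and overlapped (p = 0.2 in the exact permutation test). These are ratios of transcripts, not of proteins, and the 7 ratios computed were chosen with the values known. Benjamini-Hochberg adjustment over the 7 gave 0.175 for the 4 ratios that did not overlap.

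**Figure D2:**
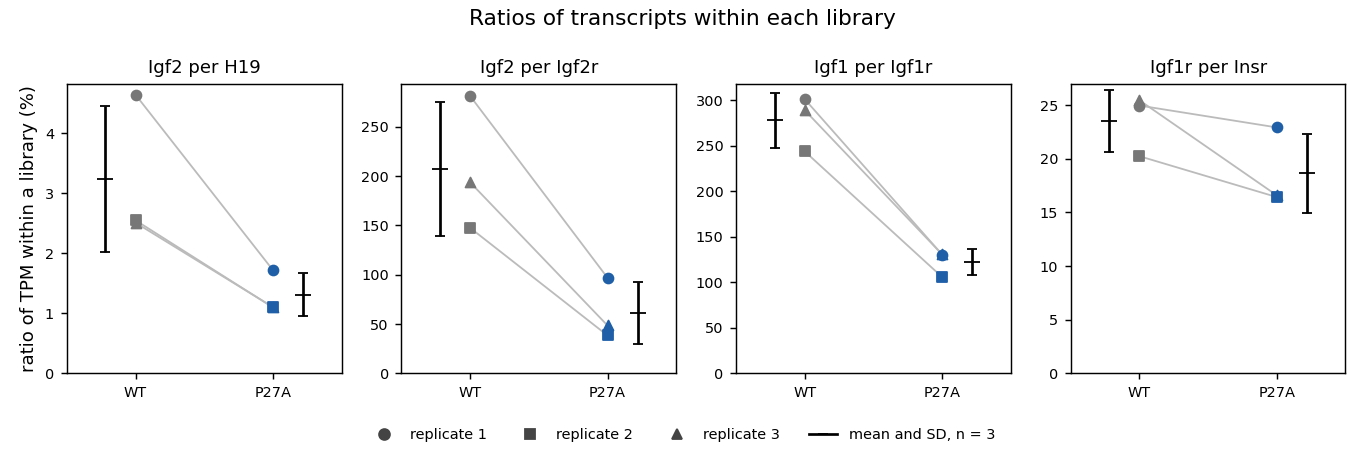
Ratio of the TPM of one gene to that of another within each library (y axis, in percent, from 0) for 3 LrpprcWT (grey) and 3 LrpprcP27A (blue) muscles, with lines joining same-numbered replicates and bars for the mean and SD. Igf2 per H19, Igf2 per Igf2r and Igf1 per Igf1r are lower in all 3 LrpprcP27A muscles than in any LrpprcWT muscle, while Igf1r per Insr overlaps.

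All 5 binding proteins fell, and the 2 most abundant, Igfbp5 and Igfbp7, made up most of their sum. Together the 5 measured 790.5, 584.8 and 729.6 TPM with LrpprcWT and 426.2, 359.5 and 361.9 TPM with LrpprcP27A, a mean of 701.7 ± 105.7 against 382.5 ± 37.8 TPM (SD, n = 3 each). The sum of the binding proteins did not overlap between the groups. Igfbp5 took 39.4 ± 9.70% of the sum with LrpprcWT and 47.1 ± 6.64% with LrpprcP27A, and Igfbp7 took 42.8 ± 8.60 and 38.4 ± 3.60%, shifts within the spread of the replicates, although the share of Igfbp5 was higher with LrpprcP27A in 3 of 3 pairs (41.1, 54.2 and 45.9% against 36.3, 50.3 and 31.7%). The binding protein genes lie on chr11:7156086-7164179 (Igfbp3), chr11:98932064-98945218 (Igfbp4), chr1:72897091-72914043 (Igfbp5), chr15:102052697-102057953 (Igfbp6) and chr5:77493130-77555931 (Igfbp7), so that none is next to another (GENCODE, GRCm39).

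Igfbp4, which inhibits IGF action until it is cut by the protease Pappa, measured 50.1, 28.3 and 50.8 TPM with LrpprcWT and 19.4, 11.8 and 16.1 TPM with LrpprcP27A. The groups lay apart, and the fall of 1.37 ± 0.25 (SE) on the log2 scale was the largest of the binding proteins (limma adjusted p = 0.0160). Igfbp3, the main carrier of IGFs in the circulation, measured 38.7, 15.4 and 22 TPM with LrpprcWT and 15.6, 6.51 and 7.03 TPM with LrpprcP27A. Its level ranged widely within each group, so that the groups overlapped, although LrpprcP27A was at 40.2, 42.4 and 32.0% of LrpprcWT within the pairs. Igfbp3 fell by 1.30 ± 0.37 (SE) on the log2 scale (limma adjusted p = 0.0385, and 3.71e-07 with the replicate block). The block fit had few pairs, so its p-value leans on a spread moderated over all tested genes. With median-of-ratios scaling the limma adjusted p of Igfbp3 was 0.1115, and 0.00438 with the block added.

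Igfbp7, a matrix-bound relative of low affinity for IGFs that vessel walls are known to express, measured 356.4, 194.7 and 365 TPM with LrpprcWT and 175.5, 123.3 and 143.2 TPM with LrpprcP27A. The lowest LrpprcWT muscle, replicate 2, was above the highest LrpprcP27A muscle. Igfbp7 fell by 1.00 ± 0.24 (SE) on the log2 scale (limma adjusted p = 0.0264). Its exons overlap those of Polr2b, a subunit of RNA polymerase II at 17.5 to 23.1 TPM. Igfbp6, which prefers Igf2 over Igf1, measured 58.4, 52.3 and 60.8 TPM with LrpprcWT and 40.6, 23.0 and 29.5 TPM with LrpprcP27A. The LrpprcWT muscles were close together and all higher, and Igfbp6 fell by 0.90 ± 0.19 (SE) on the log2 scale (limma adjusted p = 0.0208).

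Igfbp5, the binding protein that differentiating muscle cells secrete, differed from the other binding proteins in which muscle was lowest. It measured 286.9, 294.2 and 231.1 TPM with LrpprcWT and 175.1, 194.9 and 166 TPM with LrpprcP27A, so that replicate 2 held the highest value of both groups. The groups did not overlap, and the fall of 0.59 ± 0.12 (SE) on the log2 scale was the smallest of the binding proteins (limma adjusted p = 0.0206). With median-of-ratios scaling Igfbp5 differed by -0.22 on the log2 scale (adjusted p = 0.431). Igfbp4 per Igfbp5 overlapped between the groups (exact permutation p = 0.3) but was lower with LrpprcP27A in 3 of 3 pairs, at 17.5, 9.63 and 21.96% with LrpprcWT and 11.1, 6.06 and 9.72% with LrpprcP27A. Igfbp5 per Igfbp7 overlapped as well (exact permutation p = 0.4) and was higher in 3 of 3 pairs, by 0.42 ± 0.41 (SD of the pairs) on the log2 scale.

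In the order of their levels per transcript length, H19 was first, Igf1 ninth and Igf1r last in both groups. Igf2 stood at rank 4 of 10 with LrpprcWT and at rank 7 with LrpprcP27A, below Igfbp6, Igf2r and Igfbp4. With LrpprcP27A its values overlapped with those of Igfbp6 and Igfbp4 and lay below all those of Igf2r. With LrpprcWT they overlapped with those of Igfbp6 and Igfbp4 as well. Igfbp5 and Igfbp7 stood at ranks 2 and 3 in changing order and overlapped in both groups. Other neighbours that overlapped were Igfbp4 with Igf2r and Igf2r with Igfbp3 under LrpprcWT, and Igfbp6 with Igf2r, Igf2 with Igfbp3 and Igf1 with Igf1r under LrpprcP27A.

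How much of the fall belongs to the IGF genes depended on the scaling, because most genes were lower with LrpprcP27A on the deposited scale. The median log2 fold change of the 10 genes was -1.01, against -0.32 over all tested genes, of which 88% were below 0. Median-of-ratios scaling, which takes the typical gene as unchanged, moved the median over all genes to -0.00472 and that of the 10 to -0.64, and all tested genes then split into 700 lower and 610 higher (6.03 and 5.25%) instead of 2705 and 156. On that scale Igf2 (-1.85, limma adjusted p = 0.0329), Igfbp4 (-1.01, adjusted p = 0.0303) and Igf1 (-0.88, adjusted p = 0.0323) passed the test, and they also did with quantile normalization and with rescaling over genes outside the mitochondrial genome and ribosomal RNA. Across all tested genes 453 fell under all 3 of these scalings. The other 5 that fell on the deposited scale had adjusted p between 0.0609 and 0.431 with median-of-ratios scaling, and H19, Igfbp3 and Igfbp7 passed when the replicate block was added to it, which made 6 of 10 where 15.8% of all genes fell.

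**Figure D3:**
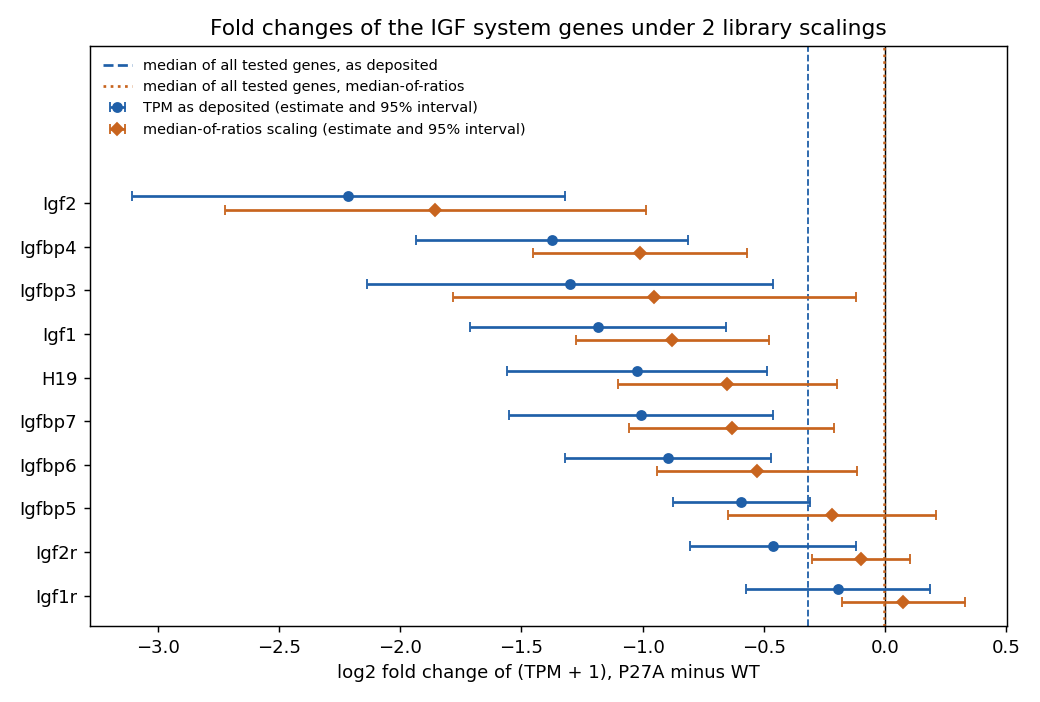
Log2 fold change of TPM + 1, LrpprcP27A minus LrpprcWT (x axis), of the 10 genes on the deposited scale (circles) and with median-of-ratios scaling (diamonds), with 95% intervals of the fit. Vertical lines give the medians of all tested genes, -0.32 and -0.00472. Igf2, Igfbp4, Igfbp3 and Igf1 lie furthest below them, and the intervals of Igf2 and Igfbp3 are the widest of the 10.

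Without overlap between the groups, 8 of the 10 genes were lower, Igf2r included and Igfbp3 not, and 0 were higher, where 47.6% of all tested genes were lower and 3.51% higher. In all 3 same-numbered pairs, 9 were lower, all but Igf1r, where 70.1% of all tested genes were. The median log2 difference of the 10 genes was -0.90, -0.85 and -1.27 in the pairs of replicates 1, 2 and 3. With the replicate number as a block, 9 of the 10 fell, Igf2r in addition, and 0 rose, where 48.4% of all tested genes fell and 2.69% rose.

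The calls rested on few muscles. LrpprcWT replicate 2 was the lowest LrpprcWT muscle for 9 of the 10 genes, Igfbp5 being the exception, and for 80.8% of all tested genes. Without it all 10 passed the test, the receptors included (limma adjusted p from 0.00325 to 0.0426), and 6913 of the 11611 tested genes fell. Without LrpprcWT replicate 1 only 1 of the 8 still passed, with 291 of all genes lower, and without LrpprcWT replicate 3 none did. The 8 then had adjusted p from 0.0668 to 0.136, 9 of the 10 were under an unadjusted p of 0.05, and 15 of all tested genes fell. Leaving out LrpprcP27A replicates 1, 2 or 3 left 8, 4 and 3 of the 8, with 1688, 504 and 440 of all genes lower. All 10 log2 fold changes stayed below 0 in each of these 6 fits.

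The gene on the plasmids, Lrpprc, measured 35.1, 37.0 and 75.2 TPM with LrpprcWT and 26.9, 29.7 and 26.0 TPM with LrpprcP27A, and plasmid and endogenous transcripts are not separated in it. The groups did not overlap, LrpprcWT replicate 3 stood far above the other 5 muscles, and the log2 fold change was -0.72 ± 0.26 (SE; limma adjusted p = 0.0652, and 0.00243 with the replicate block). The median-of-ratios alternative gave -0.36 for Lrpprc (limma adjusted p = 0.331, and 0.245 with the block), and without LrpprcWT replicate 3 it was -0.38 (adjusted p = 0.113). By qRT-PCR the study reported similar Lrpprc mRNA for both plasmids in young mice and no significant difference in old mice. Both plasmids gave more Lrpprc mRNA than mock-electroporated muscle. The part of the level of Lrpprc in the fall of the IGF genes was not tested. Between 17774 and 19053 genes were above 0 in a library. The mitochondrial genome took 36.0 to 45.2% of the TPM with LrpprcWT and 44.2 to 46.1% with LrpprcP27A. The ribosomal RNA gene Rn18s-rs5 took 8874 to 17614 TPM against 37023 to 44435 TPM. Since TPM adds up to a fixed total, a larger share here leaves less for other genes. After rescaling over genes outside both groups, the median over all tested genes was -0.175 with 72.7% below 0, against -0.32 and 88% as deposited. Their part in the general fall was not tested.

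Among the other ligand, receptor and binding protein genes, 3 of 8 passed the filter on low values and 0 of them changed in the unpaired fit (limma, also at an unadjusted p under 0.05). Insr measured 11.5 ± 1.93 TPM with LrpprcWT and 12.1 ± 1.79 TPM with LrpprcP27A (SD, n = 3 each, limma adjusted p = 0.712). The growth hormone receptor Ghr measured 25.01 ± 2.72 and 24.5 ± 3.703 TPM (adjusted p = 0.846), and Igfals, which holds the ternary complex of IGF and Igfbp3 in the blood, 1.22 ± 0.634 and 1.91 ± 0.856 TPM (adjusted p = 0.269, and 0.0431 with the replicate block). With median-of-ratios scaling the limma adjusted p of Igfals was 0.224, and 0.0456 with the block added, and its groups overlapped. Igfbp2 lay under the filter, with 1.46, 0.644 and 1.39 TPM with LrpprcWT against 0.109, 0 and 0.0551 TPM with LrpprcP27A, and was not tested. Igfbp1 and Igfbpl1 were listed at 0 in all 6 libraries.

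Of the 8 genes for proteases that cut binding proteins and their inhibitors, 6 were tested, 4 fell and 0 rose, with a median log2 fold change of -0.66, where 23.3% of all tested genes fell. None of the 6 passed without LrpprcWT replicate 1 or without LrpprcWT replicate 3, and 1 did without LrpprcP27A replicate 2 or 3. Adamts1 fell by 1.21 ± 0.24 (SE) on the log2 scale, from 42.5 ± 13.1 to 17.5 ± 4.08 TPM (SD, n = 3 each, limma adjusted p = 0.0176). Adam12, which can cut Igfbp3 and Igfbp5, fell by 1.04 on the log2 scale, Htra3 by 0.54 and Htra1 by 0.52 (adjusted p of 0.0290, 0.0327 and 0.0385). With median-of-ratios scaling Adamts1 passed the test (adjusted p = 0.0383) and the other 3 had adjusted p from 0.0540 to 0.363. Pappa and Pappa2 stayed at or below 0.135 TPM in every library.

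Downstream of the receptor, 35 adaptors and members of the PI3K-Akt-mTOR relay were listed and tested, of which 8 fell and 1 rose, with a median of -0.18. The share that fell was close to that of all tested genes. Without LrpprcWT replicate 1 or 3, 0 of the list fell or rose, and without LrpprcP27A replicate 2 or 3, 1 fell and 0 rose. Leaving out LrpprcWT replicate 2 gave 16 lower, and leaving out LrpprcP27A replicate 1 gave 5, each with 1 higher. Grb10, an imprinted adaptor that dampens the Igf1 and insulin receptors, fell by 1.09 ± 0.21 (SE) on the log2 scale (limma adjusted p = 0.0168), and the related Grb14 by 0.79 (adjusted p = 0.0204). Shc1 fell by 0.80, the PI3K subunit Pik3r1 by 0.66, Akt1 by 0.64 and the S6 kinase Rps6kb2 by 0.48. Akt2, the other main Akt of muscle, measured 60.1 ± 4.95 TPM with LrpprcWT and 58.4 ± 2.77 TPM with LrpprcP27A (SD, n = 3 each, adjusted p = 0.778). Irs1 (adjusted p = 0.534) and Irs2 (adjusted p = 0.554, and 0.0284 with the replicate block) overlapped between the groups, and Irs2 did not pass with the block and median-of-ratios scaling together (adjusted p = 0.784). Eif4ebp2 was the 1 gene of the list that rose, by 0.39 on the log2 scale (limma adjusted p = 0.0407). With median-of-ratios scaling the median of the list was 0.13, and 2 fell and 3 rose, and Shc1, Pik3r1, Akt1 and Rps6kb2 no longer passed. Eif4ebp2 still passed on that scale (limma adjusted p = 0.02815). With the replicate block 13 fell and 1 rose, where 48.4% of all tested genes fell, and with the block and median-of-ratios scaling together 5 fell and 11 rose, where 15.8% of all genes fell and 13.4% rose.

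IGF signalling keeps FoxO factors out of the nucleus, and of 19 FoxO genes and muscle genes they are known to activate, 4 fell and 3 rose, where 23.3% of all tested genes fell and 1.34% rose. The median was -0.18 on the deposited scale and 0.19 with median-of-ratios scaling. Fbxo32, the atrophy ubiquitin ligase atrogin-1, rose by 0.72 ± 0.15 (SE) on the log2 scale, from 67.1 ± 7.41 to 112.3 ± 19.6 TPM (SD, n = 3 each, limma adjusted p = 0.0202). Mstn, which encodes myostatin, rose by 1.10 ± 0.27 (SE), from 8.34 ± 2.47 to 19.1 ± 6.04 TPM (adjusted p = 0.0279). Fbxo31 was the other gene that rose. Cdkn1a, an inhibitor of the cell cycle that also marks differentiating myoblasts, went the other way, by -1.85 ± 0.23 (SE, adjusted p = 0.00890), and Foxo6, Ctsl and Cdkn1b fell by 0.75, 0.65 and 0.65 on the log2 scale. Foxo1 measured 7.18 ± 2.41 and 5.20 ± 1.60 TPM (adjusted p = 0.226, 0.0213 with the block, and 0.540 with the block and median-of-ratios scaling together) and Foxo3 9.23 ± 1.88 and 7.60 ± 1.10 TPM (adjusted p = 0.270). Trim63, named by the study as an atrophy gene beside Fbxo32, measured 165.5 ± 26.6 and 159.3 ± 44.7 TPM (SD, n = 3 each, limma adjusted p = 0.760). With median-of-ratios scaling Fbxo32, Mstn, Fbxo31 and Cdkn1a passed the test in the same direction, while Foxo6, Ctsl and Cdkn1b did not. Without LrpprcWT replicate 1 or 3, or without LrpprcP27A replicate 2 or 3, 0 genes of this list rose and at most 1 fell.

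Beyond Igf1, 7 genes of growth hormone signalling were tested, and 1 fell and 0 rose, where 23.3% of all tested genes fell. It was Stat5a, which fell by 0.55 on the log2 scale (limma adjusted p = 0.0289, and 0.107 with median-of-ratios scaling). With median-of-ratios scaling 0 fell and 1 rose, where 6.03% of all genes fell and 5.25% rose. With the replicate block 1 fell and 2 rose (48.4 and 2.69% of all genes), and with both 0 fell and 3 rose (15.8 and 13.4%). Around Igf2 and H19 on chromosome 7, 8 neighbours were tested and 2 fell, a share near the 23.3% of all tested genes. Lsp1 fell by 1.28 and Cd81 by 0.68 on the log2 scale (limma adjusted p of 0.00831 and 0.0242), and the median was -0.14. With median-of-ratios scaling the median was 0.22, Lsp1 passed and Cd81 did not (limma adjusted p of 0.0144 and 0.0595). With the block added to that scaling 2 neighbours fell and 2 rose. None fell without LrpprcWT replicate 3, and 1 to 3 fell without any other single library. The neighbours Tnnt3 and Tnni2, which encode fast troponins, had log2 fold changes of 0.08 and 0.05 (adjusted p of 0.587 and 0.729).

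Most other tested imprinted genes, which are known to be expressed together with Igf2 and H19 in growing tissues, were lower as well. The list was chosen with earlier results of these data known. Some of its genes, such as Dlk1, Meg3 and Rian, share a domain, so that the count is a description only. Of 23 listed genes without Igf2, H19 and Igf2r, 18 were tested, 12 fell and 0 rose, with a median log2 fold change of -1.36, where 23.3% of all tested genes fell. With median-of-ratios scaling 11 fell and 0 rose with a median of -1.03, where 6.03% of all genes fell. Dlk1, a paternally expressed membrane protein of growing muscle, measured 12.3, 3.90 and 5.56 TPM with LrpprcWT and 0.816, 0.180 and 0.243 TPM with LrpprcP27A (limma adjusted p = 0.0116). The groups were far apart in Dlk1. The maternally expressed RNAs Meg3 and Rian of the same domain fell by 2.45 and 2.43 on the log2 scale, and the paternally expressed Mest by 2.70. Plagl1, a transcription factor known to act on Igf2 and H19, fell by 1.92 ± 0.39 (SE) on the log2 scale (adjusted p = 0.0196), Peg3 by 1.66 and the cell cycle inhibitor Cdkn1c by 1.45. Genes known for maternal and genes known for paternal expression were both among those that fell. Slc38a4, an amino acid transporter, differed in the other direction, at 0.63 (adjusted p = 0.0959, and 0.00153 with the replicate block). Without LrpprcWT replicate 3 none of the 18 passed the test (smallest limma adjusted p = 0.0720), with a median of -1.34, and without any other single library 10 to 15 fell. Of the 18, 1 rose without LrpprcWT replicate 2 and 1 without LrpprcP27A replicate 1.

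**Figure D4:**
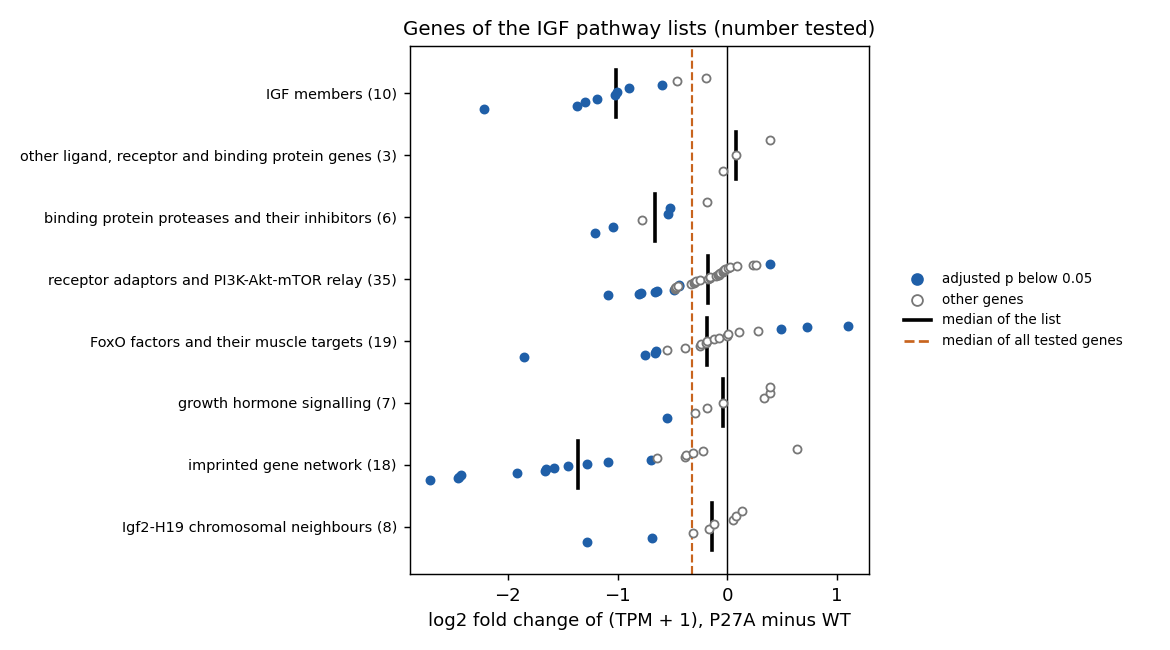
Log2 fold change of TPM + 1, LrpprcP27A minus LrpprcWT (x axis), of each tested gene in the listed groups, with filled points for an adjusted p below 0.05, black bars for list medians and a dashed line for the median of all tested genes (-0.32). The IGF genes (median -1.01) and the imprinted genes (median -1.36) lie furthest left, and the relay, FoxO and growth hormone genes spread around the line and 0.

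Over all these lists without the 10 genes themselves, 92 of 109 genes were tested, 30 fell and 4 rose, and the median was -0.29, against -0.32 over all genes, of which 23.3% fell and 1.34% rose. The median was 0.05 with median-of-ratios scaling, where 15 of the listed genes fell and 8 rose, against 6.03 and 5.25% of all genes. With the replicate block 43 fell and 7 rose, against 48.4 and 2.69% of all genes. The count of 30 became 12 without LrpprcWT replicate 1, 0 without LrpprcWT replicate 3, and 14 without either LrpprcP27A replicate 2 or 3.

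Most tested markers of several cell types were lower with LrpprcP27A. Of 8 regenerating fibre markers, among them embryonic myosin Myh3, neonatal myosin Myh8, Myog and the fusion protein gene Mymk, 7 fell, with a median log2 fold change of -2.07, and their summed level was 93.5 to 186.9 TPM with LrpprcWT and 27.3 to 46.3 TPM with LrpprcP27A. Macrophage markers fell in 10 of 10 tested (332.1 to 666.8 against 111.9 to 229.1 TPM). The macrophage marker Cd163 lay under the filter on low values and was not tested, and it was higher with LrpprcP27A, at 0.315, 0.581 and 0.480 TPM with LrpprcWT and 1.07, 0.822 and 1.67 TPM with LrpprcP27A, without overlap. Fibro-adipogenic markers fell in 8 of 11 (1216 to 1842 against 496.5 to 888.8 TPM) and satellite cell markers in 5 of 7 (40.4 to 71.7 against 28.6 to 34.5 TPM). The sums of these 4 lists did not overlap between the groups, and these counts stand beside 23.3% of all tested genes that fell. With median-of-ratios scaling, where 6.03% of all genes fell, 7 regenerating fibre, 3 macrophage, 5 fibro-adipogenic and 2 satellite cell markers did. Without LrpprcWT replicate 3 none of these 4 lists had a marker that fell (limma), and without LrpprcWT replicate 1 they had 7, 2, 3 and 0. Without LrpprcP27A replicate 2 they had 7, 3, 5 and 1, and without LrpprcP27A replicate 3 they had 6, 3, 5 and 0. Endothelial markers fell in 3 of 10 and mural cell markers in 2 of 8, shares near that of all genes, and in 8 of 10 and 5 of 8 with the replicate block, where 48.4% of all genes fell, and 0 of either fell with median-of-ratios scaling. Among the others, tendon markers fell in 2 of 5, Schwann cell markers in 1 of 4 and adipocyte markers in 0 of 3. The adult myofibre markers, which identify the tissue as fast muscle, summed to 122659 to 135727 TPM with LrpprcWT and 112539 to 127396 TPM with LrpprcP27A, 2 of 10 falling and 1 rising. No list had a gene at 0 in all 6 libraries. The part of these cell types in the fall of the IGF transcripts was not tested.

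**Figure D5:**
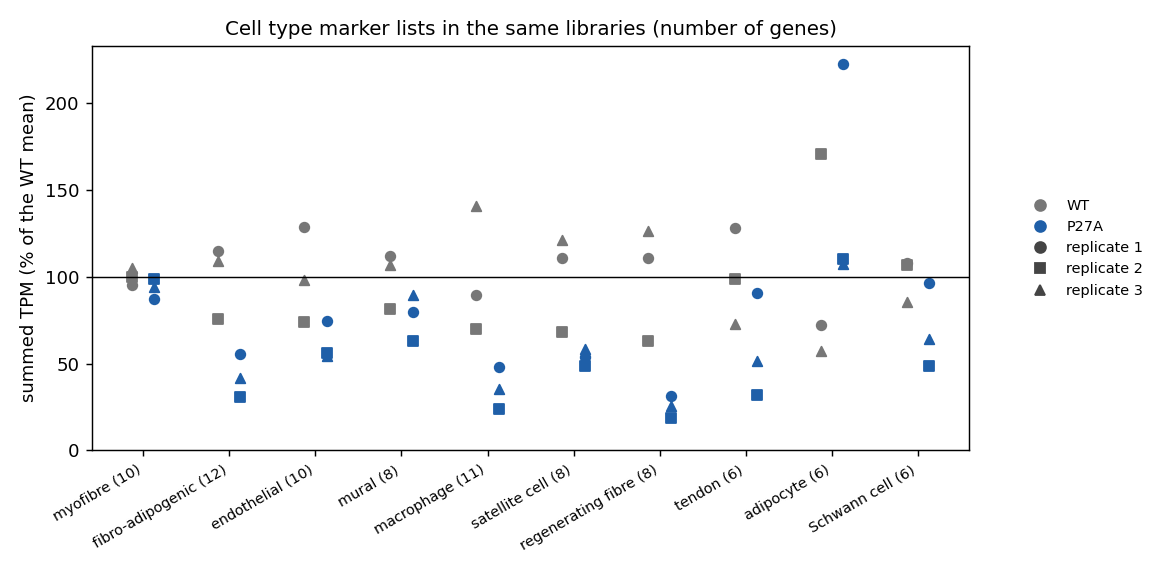
Summed TPM of each cell type marker list as a percentage of the LrpprcWT mean (y axis, from 0) in the 3 LrpprcWT (grey) and 3 LrpprcP27A (blue) muscles, with the replicate given by the marker shape. Regenerating fibre, macrophage, fibro-adipogenic and satellite cell lists lie lower in every LrpprcP27A muscle, while the adult myofibre list stays near 100% and overlaps.

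The tested genes whose levels ran closest to an IGF gene over the 6 libraries were found by the root mean square difference of centred log2 values. For Igf2 these were Col14a1 (0.136), Cilp (0.184) and Col3a1 (0.195), all genes of the extracellular matrix. H19 ran closest to Mmp3, Cks1b and Vat1 (0.0498 to 0.0573) and Igf1 to Tcaf1, Ppic and Nlgn2 (0.0628 to 0.0857). Igf2r ran closest to Unc45a, Rbm4 and Khdc4 (0.0230 to 0.0315). For the binding proteins the closest gene was Pamr1 for Igfbp3, Ptgfrn for Igfbp4, Ppp1r3d for Igfbp5, Tgfbi for Igfbp6 and Prelid1 for Igfbp7. The 6 points of each pattern share the libraries and the difference between the groups, so that this is a description only.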

How the data were processed

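RNA-seq was done on 6 TA muscles with the TruSeq RNA v2 kit, which does not mark strand, and paired-end reads. Per the study's methods, the authors trimmed the reads, mapped them to GRCm39 with CLC Genomics Workbench and deposited TPM for 41709 genes. Each library sums to a fixed total, so depth and counting error are unknown. The RNA input is 1 mg in the labels and in micrograms in the methods.

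Values were taken as log2(TPM + 1), and the 11611 genes that averaged 1 TPM or more were tested, which understates changes of low genes. Limma 3.58.1 (R 4.3.3, empirical Bayes with a trend) compared the groups unpaired, as the study did, with Benjamini-Hochberg adjustment over all tested genes. Ratios within a library were compared by exact permutation. The muscles are contralateral, and deviations of same-numbered libraries correlated by 0.363, 0.528 and 0.356, so fits with the replicate number as a block were made too. The sources do not say that the number is the mouse, and no batch is given. The limma p-values set the difference between groups against the spread between these muscles, moderated over all tested genes. In the unpaired fit they leave out that muscles may share a mouse.

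Members and lists were chosen with earlier results of these data known. Named from each list are genes under an adjusted p of 0.05, at most 6 by size, and a fixed set of pathway genes. Airn, Fbxo31, Trim63, Tnnt3, Tnni2, Igfbpl1, Pappa, Pappa2, Slc38a4, Cd163 and Eif4ebp2 were named after their values were seen. The genes closest in pattern to Igf1r are not reported here. Alternatives were a pseudocount of 0.1, no filter or one at 5 TPM, no trend, no moderation, the Kruskal-Wallis test, 3 scalings, the block, and each library left out. Gene positions are those of GENCODE on GRCm39, matched by symbol, and sequences those of RefSeq on GRCm38.p6. No coordinate was carried between the builds.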

Additional observations from a re-analysis of the deposited data

How the results depend on the processing

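The 10 genes kept a negative log2 fold change in every alternative except Igf1r, at 0.075 with median-of-ratios scaling (0.075 also with the replicate block) and 0.22 with quantile normalization. The count of 8 lower became 3 under each of the 3 scalings (rescaling, median-of-ratios and quantile). It became 0 without the filter, with the unmoderated linear model and with Kruskal-Wallis, where 9, 7 and 8 passed at an unadjusted p under 0.05, and it ranged from 0 to 10 with single libraries left out. No gene of the 10 rose in any of the 17 alternatives, also at an unadjusted p. Their median of -1.01 became -0.64 with median-of-ratios scaling, with or without the block, and -0.77 with quantile normalization, and ranged from -0.85 to -1.29 without single libraries. The 30 pathway genes that fell became 2 without the filter, 0 with the linear model and with Kruskal-Wallis (31 and 35 at an unadjusted p), 16 rescaled, 15 with median-of-ratios, 17 with quantile normalization and 0 to 44 without single libraries. The 4 that rose became 0, 0 and 0 in the first 3 (6, 5 and 6 at an unadjusted p), 7 with the replicate block, 8 with median-of-ratios scaling, 7 with quantile normalization, 23 with median-of-ratios scaling and the block, and 0 to 7 without single libraries. Beyond Igf2r, the block alone changed no call among the 10 genes.

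Of 169 member values under an alternative, 98 kept direction and call, 65 lost the call, 3 gained it and 3 changed sign. Over all genes the 2705 lower and 156 higher became 42 and 9 without the filter, 1 and 0 with the linear model and 0 and 0 with Kruskal-Wallis (3839 and 284, and 5530 and 407, at an unadjusted p), 5619 and 312 with the block, 657 and 218 rescaled, 518 and 493 with quantile normalization, 1839 and 1561 with median-of-ratios and the block, and 15 to 6913 lower without single libraries. Leaving out single libraries, a step added once values were known, moved the log2 difference of Igf2 per H19 between -0.98 and -1.49. The causes were not tested. TPM keeps no depth, so that a limit of detection cannot be given.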
